A study of Mus musculus with 8 samples.

Results

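In 2-cell mouse embryos, 9 of 18193 genes on the array were followed, all of the intermediate filament family: the keratin genes Krt7, Krt8, Krt18 and Krt19, the vimentin gene Vim, the nestin gene Nes and the lamin genes Lmna, Lmnb1 and Lmnb2. Every probe set whose only gene symbol in the platform annotation was one of these 9 was taken, which gave 21 of the 45101 probe sets on the Affymetrix array. Each array took the pooled total RNA of 20 embryos, and 4 samples labelled Brg1 mutant were set against 4 wild type samples. Brg1 is another name of Smarca4, which encodes the ATPase of BAF chromatin remodelling complexes, and the series title places the question in the part that maternally supplied BRG1 plays when the embryo's genome is switched on. The mutant allele, its driver, the strain and the mothers are not given in the sources used here, and the samples are called biological replicates with nothing on separate matings, so p-values speak only of how these arrays vary. Values are MAS5 signals, linear fluorescence intensities scaled per array as deposited, and their precision is limited by there being 4 arrays a group.

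Intermediate filaments are rope-like polymers of coiled-coil proteins. Keratins polymerise only as pairs of a type I and a type II chain, and the pair of keratin 8 (type II) and keratin 18 (type I) is typical of simple epithelia and, in the mouse embryo, of the trophectoderm of the blastocyst. Vimentin, a type III protein, forms filaments of its own in mesenchymal cells and in the somatic cells of the ovarian follicle, and nestin joins vimentin filaments in neural and other progenitors. Lamins line the inner nuclear membrane, where A-type lamins come from Lmna by alternative splicing and B-type lamins from Lmnb1 and Lmnb2, and eggs carry a maternal store of lamins into the early embryo.

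The 4 mutant arrays were not alike. The brightest Smarca4 probe set read 200.9 to 387.5 in mutant samples, against 612.1 to 796 in wild type samples, so this check of the labels separated the groups. Of 12 oocyte and 2-cell embryo markers with a probe set, 11 lay above the background bound on all 8 arrays, and Mos was the exception. This bound was the 95th percentile of 27 Bacillus control probe sets on each array, and it lay between 14.7 and 37.7. Over the tested probe sets, mutant replicates 3 and 4 had a correlation of r = 0.969 between them and, with the other 6 arrays, of 0.738 to 0.774, whereas among wild type arrays it was 0.916 to 0.969. These values run across probe sets, which are not independent replicates. The summed signal of 18 of 20 granulosa and cumulus cell markers was 24540.1 and 20782.4 in mutant replicates 3 and 4, 3526.6 and 2194.6 in mutant replicates 1 and 2, and 3011.1 to 3885.6 in wild type samples. By mean log2 signal on mutant replicates 3 and 4 its 3 brightest members were Hsd3b1, a steroidogenic enzyme, with 8835.3 and 6889, the gap junction gene Gja1 with 5782.7 and 4189.1, and the inhibin gene Inha with 2619 and 2364.2, and on the other 6 arrays Hsd3b1 read at most 50.5, Gja1 at most 533.1 and Inha at most 116.3. Inhba was close to Inha, at 2515.8 and 2382.7. Most of the sum on mutant replicates 3 and 4 came from Hsd3b1 and Gja1. Other markers of the list did not rise in this way. On these replicates Foxl2 read 189.8 and 186.6, against 137.4 to 169.3 in wild type samples. Cyp11a1 read 30.1 and 39.4, against 25.8 to 59.7, and Amhr2 1358.5 and 1451.3, against 1353.5 to 2017.8. No marker was at 0 on all arrays, and Amh and Ptx3 stayed under the bound on all 4 mutant arrays. The mean of mutant replicates 3 and 4 over the wild type mean was 6.59 for this list, 1.13 for oviduct epithelium, 0.927 for stromal fibroblasts, 1.13 for blood and endothelium, 0.581 for sperm, 0.407 for trophectoderm and 1.04 for the oocyte and 2-cell list, whose mean on mutant replicates 1 and 2 was 2.27 times the wild type mean. Much of the latter came from Oosp1, at 21368.6 and 19965.1 there and 5702.8 to 8216.2 in wild type samples. On mutant replicates 3 and 4 members of the oocyte list went both ways. Zar1 read 2438.6 and 2482.8, against 337 to 410.7 in wild type samples, and Bmp15 1482.5 and 1470, against 1886.1 to 2831.5. Signs of RNA quality and input differed between the mutant pairs or between the groups too. The ratio of 3′ to 5′ signal of the actin control was 7.04 and 4.88 on mutant replicates 3 and 4, against 12.9 to 21.1 on the other 6 arrays, and that of the Gapdh control was 6.63 to 7.33 in mutant samples and 8.58 to 10.1 in wild type samples. The signal of the bacterial and phage hybridisation controls, over the wild type mean, was 4.81 and 3.37 on mutant replicates 1 and 2, 1.24 and 0.713 on mutant replicates 3 and 4, and 0.749 to 1.23 in wild type samples. Changes of the tested members, and those of the related genes by their brightest probe set, are therefore also given without mutant replicates 3 and 4. The part of the granulosa marker signal, of these ratios and of the control signal in the results was not tested. In pooled embryos, fewer cells of a type and less RNA per cell cannot be told apart.

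**Figure D1:**
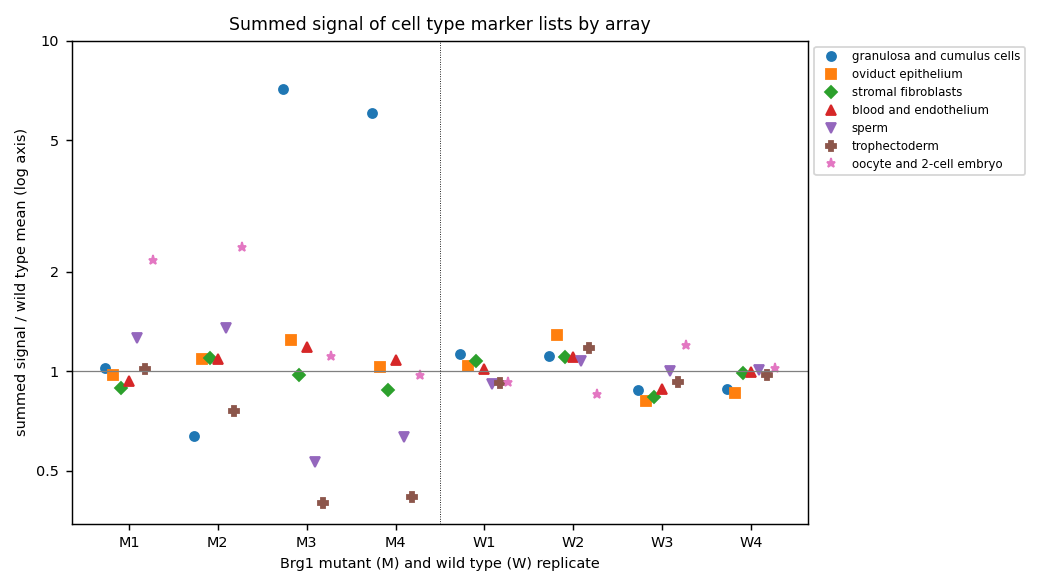
Summed MAS5 signal of 7 marker lists on each array, divided by the mean of the 4 wild type arrays, on a log axis; M1 to M4 are Brg1 mutant and W1 to W4 wild type replicates. The granulosa and cumulus list lies far above 1 on mutant replicates 3 and 4, the oocyte and 2-cell list is raised on mutant replicates 1 and 2, and the trophectoderm list is lowest on mutant replicates 3 and 4.

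Of the 21 probe sets, 12 were bright enough to be tested, that is in the upper 50% of all probe sets by mean log2 signal, and they stood for Krt8, Krt18, Vim, Nes, Lmna and Lmnb1. The probe sets of Krt7, Krt19 and Lmnb2 were all dimmer and are described without a test. With limma and Benjamini-Hochberg adjustment over 22519 probe sets, 1 of the 12 passed as higher in mutants, that of Krt18, and 0 passed as lower. At an unadjusted p under 0.05 the count was 5. Over all tested probe sets 2.98% were called higher and 3.58% lower (671 and 807 calls), so a single call among 12 says little about the group as a whole. The split of all calls depended on the scaling, with 421 higher and 1558 lower after centring on the median and 497 higher and 1105 lower after centring on the 75th percentile, and the median log2 change over all 22519 probe sets was -0.22 and -0.19 under these settings, -0.14 after quantile normalization and -0.05 as deposited. Over the 12 probe sets it was 0.077 and 0.11 under the same 2 centrings, 0.22 after quantile normalization and 0.25 as deposited. Of the 12, 3 reached the required mean log2 signal of 5.25 only through mutant replicates 3 and 4: the tested probe set of Vim and the second and the third of Krt8. These had to differ, so a count or median over the 12 that includes them carries no weight. The same holds for their own p-values in fits that include mutant replicates 3 or 4.

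**Figure D2:**
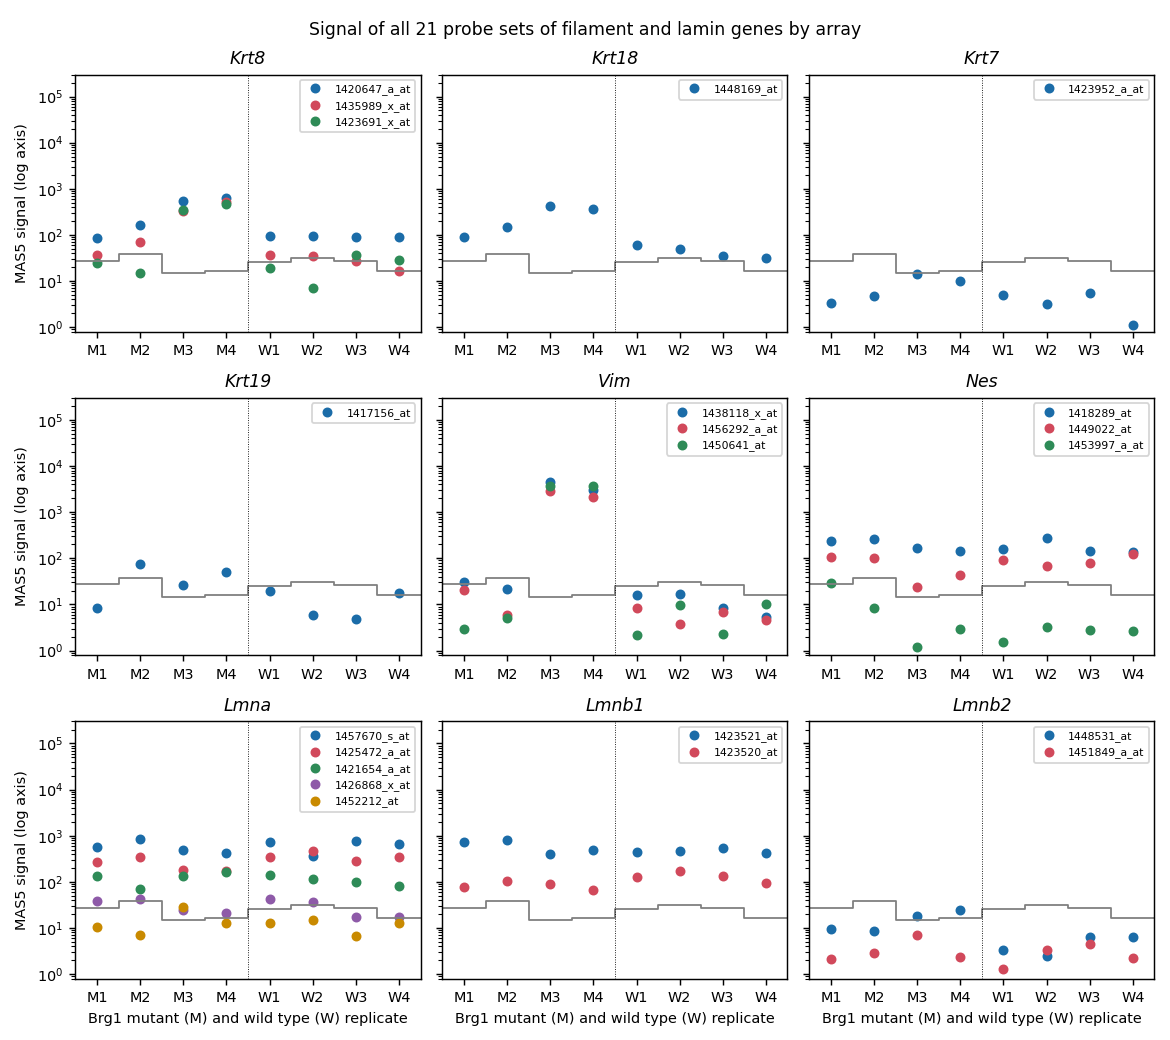
MAS5 signal of all 21 probe sets on each array, on a log axis, with signals under 1 drawn at 1; M1 to M4 are Brg1 mutant and W1 to W4 wild type replicates, and the grey step is the background bound of each array. The points of Vim, Krt8 and Krt18 are highest on mutant replicates 3 and 4, those of Lmna and Lmnb1 vary less, and both Lmnb2 probe sets and that of Krt7 lie near or under the bound.

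Krt8 and Krt18 are neighbours on mouse chromosome 15, with 0 annotated protein-coding genes between them and on opposite strands, and Vim lies on chromosome 2. Because the signals of all 3 were high on the same arrays, their promoter windows are shown, each from 250 bases before to 50 bases after the annotated start (RefSeq, GRCm38.p6, coding strand, 5′ to 3′). The Krt8 window is chr15:102004293-102004592 on the minus strand, the Krt18 window chr15:102027966-102028265 on the plus strand and the Vim window chr2:13574061-13574360 on the plus strand. Capitals mark matches to any of 4 promoter motifs, searched on both strands. The TATA box was searched for as TATAAA. The CCAAT box was searched for under the letters of its name. For the GC box the letters taken were GGGCGG. An AP-1 site was any match to TGANTCA.
Krt8: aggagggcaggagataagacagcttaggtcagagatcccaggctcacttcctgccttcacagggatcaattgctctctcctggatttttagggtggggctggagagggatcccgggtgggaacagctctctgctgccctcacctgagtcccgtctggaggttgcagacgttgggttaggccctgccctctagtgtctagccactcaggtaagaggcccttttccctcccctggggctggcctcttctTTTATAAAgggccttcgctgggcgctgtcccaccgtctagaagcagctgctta
Krt18: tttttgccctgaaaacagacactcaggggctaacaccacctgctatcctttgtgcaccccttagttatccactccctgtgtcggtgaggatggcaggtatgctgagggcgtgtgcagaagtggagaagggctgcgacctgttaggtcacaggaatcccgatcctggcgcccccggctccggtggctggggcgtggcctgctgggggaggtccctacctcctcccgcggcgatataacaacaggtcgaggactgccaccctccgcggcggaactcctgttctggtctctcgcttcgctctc
Vim: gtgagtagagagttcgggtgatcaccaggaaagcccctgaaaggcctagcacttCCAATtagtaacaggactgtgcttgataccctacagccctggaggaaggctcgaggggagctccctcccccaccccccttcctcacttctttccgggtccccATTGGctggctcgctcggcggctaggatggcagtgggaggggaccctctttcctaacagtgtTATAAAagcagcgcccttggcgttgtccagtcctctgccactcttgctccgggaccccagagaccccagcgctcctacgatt
The Vim window held a TATA box at position -32 from the start and a CCAAT box on each strand. The Krt8 window held the TATA letters at the start itself, on both strands in an overlap, and the Krt18 window held none of the 4 motifs. Among 32851 promoter windows of this length, 13.6% held the TATA box, 37.4% the CCAAT box, 35.7% the GC box and 7.81% the AP-1 site. A match is a description of these letters. Windows of Krt7, Nes, Lmna and Lmnb2 were searched as well: GC boxes were found in Krt7, Nes, the upstream Lmna window and 1 of 2 Lmnb2 windows, the CCAAT letters in the downstream Lmna window, and the AP-1 letters of these windows only in the upstream Lmna one, from position 40 after its start.

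Krt18, the type I partner of keratin 8, was the only member whose change passed the test. It has 1 probe set, which read 89.5, 149.7, 415.8 and 372.5 in mutant replicates 1 to 4, against 60.9, 48.3, 35.4 and 31.3 in wild type replicates 1 to 4. Every mutant array lay above every wild type array, the bound was exceeded on all 8, and mutant replicates 3 and 4 were the highest. The log2 change was 2.33 (SE 0.488, limma adjusted p = 0.0249) and mean signals were 257 ± 161 in mutant samples and 44.0 ± 13.4 in wild type samples (SD, n = 4 each).

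The Krt18 call depended on which arrays were used. Without mutant replicates 3 and 4 the log2 change was 1.45 (SE 0.390, limma adjusted p = 0.0562), and without mutant replicates 1 and 2 it was 3.21 (limma adjusted p = 8.72e-05). When arrays were left out singly, the call was lost without mutant replicates 3 and 4 in turn (limma adjusted p = 0.0604 and 0.0640) and without wild type replicates 1 to 4 in turn (limma adjusted p = 0.0660, 0.0608, 0.0773 and 0.0794). It was kept without mutant replicates 1 or 2 (limma adjusted p = 0.00843 and 0.0215). Mutant replicates 1 and 2 read 1.47 and 2.46 times the brightest wild type array for Krt18. The granulosa list summed there to no more than on the highest wild type array, but its members went both ways. Kitl read 161.3 and 92 on these 2 arrays, against 31.2 to 58.3 in wild type samples. Inhbb read 56.8 and 16.4, against 57.9 to 111.3. What these markers mean for Krt18 was not tested. Trophectoderm markers, 7 genes chosen without the keratins, summed to 417.8 and 434 on mutant replicates 3 and 4, where Krt18 was highest, to 1061.9 and 794.8 on mutant replicates 1 and 2, and to 960.6 to 1232.7 in wild type samples. Most of each sum came from Tfap2c, at 260.8 and 260.2 on mutant replicates 3 and 4 and 599.9 to 773.8 in wild type samples. Of the 7, 1 lay under the bound everywhere.

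Krt8, the type II partner, was read by 3 probe sets that agreed on mutant replicates 3 and 4. On its brightest probe set Krt8 read 86.6, 167.8, 554.6 and 618.7 in mutant replicates 1 to 4, against 94.5, 94.7, 88.8 and 90 in wild type replicates 1 to 4. The wild type arrays were nearly level (92.0 ± 3.04, SD, n = 4), mutant replicate 1 lay just under them, and the other 3 mutant arrays lay above. The log2 change of 1.53 (SE 0.558) missed the threshold (limma adjusted p = 0.121). The second Krt8 probe set read 37, 70.9, 335.4 and 507.1 in mutant samples, against 37.1, 34.3, 27.8 and 16.9 in wild type samples (log2 change 2.39, SE 0.745, limma adjusted p = 0.0801). The third read 24, 14.6, 342.1 and 459.6 in mutant samples, against 19.3, 7.2, 36.4 and 28.3 in wild type samples (log2 change 2.15, limma adjusted p = 0.242). It lay under the bound on mutant replicates 1 and 2 and on wild type replicates 1 and 2, so its changes rest in part on background signal. The second and the third, like the tested probe set of Vim, have names ending in _x_at, which marks probes that can also bind other transcripts. The 3 log2 changes were 0.39, 0.88 and -0.055 when mutant replicates 3 and 4 were left out, and none passed (limma adjusted p = 0.464, 0.314 and 0.975; 0 at an unadjusted p under 0.05). Without mutant replicates 1 and 2 they were 2.67, 3.89 and 4.35 and all passed (limma adjusted p = 2.44e-05, 7.96e-05 and 0.000443). The second and the third entered the test only through mutant replicates 3 and 4. Their calls, here and in the next fits, therefore carry no weight. Leaving out mutant replicate 1 alone was enough for a call on the first and second probe sets (limma adjusted p = 0.0203 and 0.0200), and leaving out mutant replicate 2 alone for one on the second (limma adjusted p = 0.0492).

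The other keratins of simple epithelia were dim. Krt7, a type II keratin of glandular and ductal epithelia, read 3.3, 4.7, 14.5 and 10 in mutant samples, against 4.9, 3.1, 5.6 and 1.1 in wild type samples. All 8 values were under the bound, so no fold is given. Krt19, a type I keratin that lacks most of the tail domain, read 8.3, 77, 26.7 and 51.4 in mutant samples, against 19.3, 6, 4.9 and 18 in wild type samples. It exceeded the bound on 3 mutant arrays and 1 wild type array, and mutant replicate 2, not 3 or 4, was its highest.

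Vim reached the highest signals of the family. Its brightest probe set read 31.1, 21.5, 4526.1 and 3107.2 in mutant replicates 1 to 4, against 16.1, 17.1, 8.3 and 5.3 in wild type replicates 1 to 4. All mutant arrays lay above all wild type arrays, but wild type signal was under the bound throughout and mutant replicate 2 was too. Where a group lies under the bound on all its arrays, only a lower limit is given, the brighter group's mean over the mean of the bound (means of log2 values). Vim was at least 12.8-fold higher in mutant samples as a group, which did not pass (limma adjusted p = 0.0935). Mutant replicates 3 and 4 alone were at least 155-fold above wild type samples on this probe set. It was tested only because of these 2 arrays, so the limma adjusted p of 7.41e-06 carries no weight. The second Vim probe set read 20.6, 5.9, 2869.1 and 2181.4 in mutant samples, against 8.5, 3.7, 7 and 4.6 in wild type samples. The third read 3, 5, 3735.1 and 3645.9 in mutant samples, against 2.2, 9.8, 2.3 and 10.1 in wild type samples. On all 3 probe sets the signal was at least 2181.4 on mutant replicates 3 and 4 and at most 31.1 on the other 6 arrays. The second and the third were not tested, since their mean over 8 arrays was too low. Between mutant replicates 1 and 2 and wild type samples, whose signals lay near or under the bound, no fold is given (limma adjusted p = 0.412). The tested Vim probe set also passed without mutant replicate 1 or 2 alone (limma adjusted p = 0.0418 and 0.0289). These calls carry no weight either, as both fits include mutant replicates 3 and 4.

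Nes did not follow Vim. On its brightest probe set Nes read 235.1, 269.5, 165.4 and 144.7 in mutant samples, against 159.7, 278.3, 146.5 and 140 in wild type samples. The groups overlapped (log2 change 0.18, 95% interval -0.50 to 0.87, limma adjusted p = 0.763), also without mutant replicates 3 and 4 (log2 change 0.53, limma adjusted p = 0.330). The second Nes probe set read 108.1, 101, 23.6 and 43.2 in mutant samples, against 92, 69.2, 78.5 and 124.1 in wild type samples. Here mutant replicates 3 and 4 were the 2 lowest of 8 arrays, and mutant replicates 1 and 2 lay within the wild type range. Its log2 change was -0.62 over all samples (limma adjusted p = 0.462), -1.47 with only replicates 3 and 4 as mutants (limma adjusted p = 0.00918) and 0.24 with only replicates 1 and 2 (limma adjusted p = 0.668). The third probe set read at most 8.5 except on mutant replicate 1, where it read 29.4.

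The lamins varied less than Krt18 and Vim, and their probe sets did not move as one. From the lowest to the highest of 8 arrays the tested lamin probe sets spanned 1.01 to 1.41 log2 units, against 3.73 for Krt18. Lmna was read by 5 probe sets, of which 3 were tested and 0 passed in limma (0 at an unadjusted p under 0.05). The brightest Lmna probe set read 578.2, 867.5, 483.6 and 425.2 in mutant samples, against 721.3, 360.4, 770.8 and 655.9 in wild type samples (log2 change -0.09, 95% interval -0.79 to 0.61, limma adjusted p = 0.897). The second Lmna probe set read 266.2, 346.5, 179.4 and 173.7 in mutant samples, against 337.8, 462.4, 276.6 and 352.7 in wild type samples. Mutant replicates 3 and 4 were again the lowest (log2 change -0.60, SE 0.290, limma adjusted p = 0.224), and without mutant replicates 1 and 2 the fall of 0.99 on the log2 scale passed (limma adjusted p = 0.00887). The last tested Lmna probe set read 136.9, 71.2, 133 and 160.8 in mutant samples, against 142.6, 117.1, 100.6 and 83 in wild type samples (log2 change 0.15, limma adjusted p = 0.820). With mutant replicates 1 and 2 as the only mutants, the log2 changes of these 3 probe sets were 0.23, -0.21 and -0.14, and none passed (limma adjusted p = 0.705, 0.673 and 0.836). Of the other 2, one stayed between 16.9 and 42.6 on all arrays and one exceeded the bound only on mutant replicate 3, at 28.3.

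Lmnb1, which encodes lamin B1, had 2 tested probe sets whose changes had opposite signs. The brighter one read 723.4, 817.9, 406.7 and 483.5 in mutant samples, against 449.5, 471.1, 543.2 and 411.6 in wild type samples. Mutant replicates 1 and 2 were its highest arrays, and mutant replicates 3 and 4 lay within or just under the wild type range (log2 change 0.32, 95% interval -0.27 to 0.92, limma adjusted p = 0.493). With mutant replicates 1 and 2 as the only mutants, its log2 change was 0.72 (limma adjusted p = 0.0896). The dimmer one read 76.4, 103.9, 88.7 and 66.4 in mutant samples, against 130.4, 169.6, 136.6 and 93.8 in wild type samples. Of its mutant arrays, 3 lay under every wild type array and replicate 2 lay above the lowest of them (log2 change -0.65, SE 0.279, limma adjusted p = 0.176). For this second probe set the log2 change was -0.54 with mutant replicates 1 and 2 only and -0.76 with 3 and 4 only, and neither passed (limma adjusted p = 0.304 and 0.0604). Lmnb2, the gene of lamin B2, lay under the bound on every array with 1 probe set (2.1 to 7 in mutant samples, 1.3 to 4.5 in wild type samples). Its other probe set read 9.3, 8.6, 17.9 and 24.3 in mutant samples, against 3.3, 2.5, 6.3 and 6.4 in wild type samples. The groups did not overlap there, but only mutant replicates 3 and 4 exceeded the bound and wild type signal was under it, so no fold is given.

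**Figure D3:**
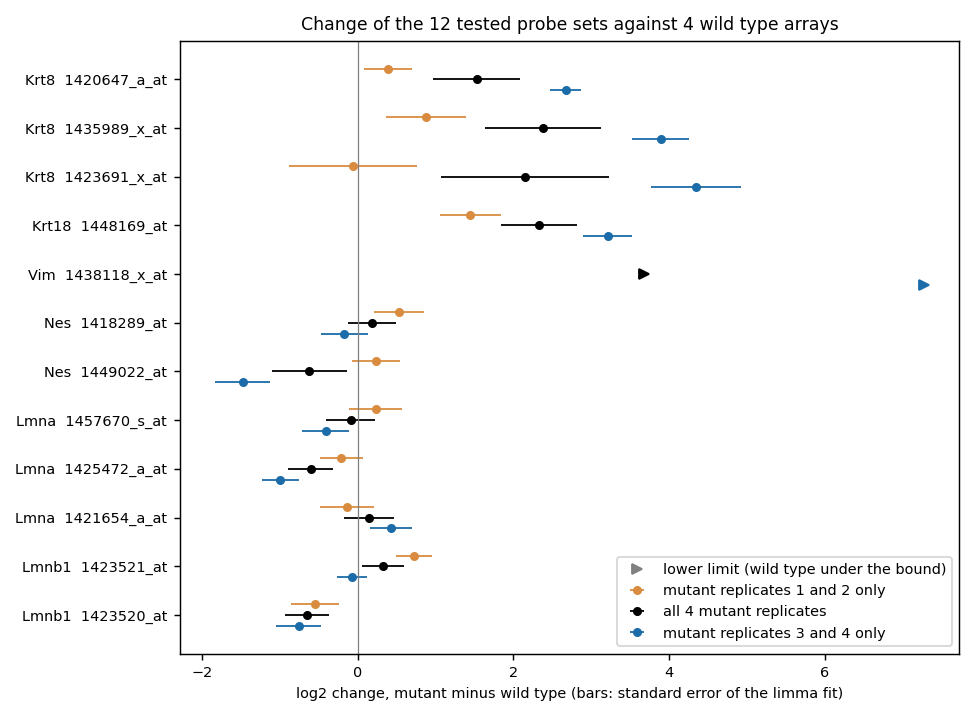
Log2 change of the 12 tested probe sets, mutant minus wild type, with bars for the standard error of the limma fit: mutant replicates 1 and 2 only (orange), all 4 mutant replicates (black) and mutant replicates 3 and 4 only (blue), each against the 4 wild type arrays. Triangles mark the lower limits of Vim, at least 12.8-fold for all mutants and at least 155-fold for replicates 3 and 4. The 3 estimates lie far apart for Krt8 (0.39, 1.53 and 2.67 on its brightest probe set), less so for Krt18 (1.45, 2.33 and 3.21), and within 1 log2 unit of one another for each Lmna and Lmnb1 probe set.

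Without mutant replicates 3 and 4, limma called 0 of the 12 (2 at an unadjusted p under 0.05), against 6.71% of all tested probe sets. Without mutant replicates 1 and 2, 5 were called higher and 2 lower, against 18.3% and 23.2% of all tested probe sets. Among the 5 are the 3 that entered the test only through mutant replicates 3 and 4, so nothing is read from their number. Each of these fits rests on 2 mutant arrays that were set apart with the earlier results known.

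The genes whose profile lay nearest to a member over the 8 arrays were found for the members whose brightest tested probe set spanned more than 3 log2 units, which were Krt18 and Vim. The measure was the root mean square difference of log2 signal after each profile was centred on its own mean, and 11297 other genes were compared. For Krt18 the 3 nearest were Clic1, an intracellular chloride channel protein (0.166 log2 units), Crip1, a LIM domain protein (0.223), and the forkhead factor gene Foxp1 (0.277). Clic1 read 98, 138.7, 466.3 and 402.5 in mutant samples, against 53.8, 61, 43.3 and 32.5 in wild type samples, an order close to that of Krt18. For Vim they were Pcolce, an enhancer of procollagen processing (0.580), the annexin gene Anxa1 (0.750) and Hsd3b1 (0.797). Pcolce read 71.5, 59.2, 4711.5 and 4111.7 in mutant samples, against 28.4, 18, 16.8 and 4.4 in wild type samples. Wild type signals of Vim lay under the bound, so its distances rest in part on background signal. Vim and its 3 nearest genes all reached the brightness limit only through mutant replicates 3 and 4. Their likeness on these arrays was thus in part set by the filter and carries no weight. The nearest profiles of Vim included 1 gene of the granulosa list.

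Proteins that share the filament systems were read from 4 lists, and 6 of 54 tested genes passed, 2 higher and 4 lower. Krt72 and Krt73, among the lower, entered the test only through wild type samples, so nothing is read from these counts. Of all 11935 tested genes 7.04% passed, 3.01% higher and 4.03% lower. Of 13 tested genes for filament linkers and desmosomal proteins, 1 rose, 0 fell and 12 did not pass (median log2 change 0.47, against -0.05 over all tested genes, and 0.46 without mutant replicates 3 and 4). Dsg2, among the 12, was tested only through mutant replicates 3 and 4, with a mean log2 signal of 4.85 on the other arrays. It adds no weight to the median of 0.47. The gene that rose was Dsp, which encodes desmoplakin, the protein that ties keratin filaments to desmosomes. On its brightest probe set Dsp read 195.1, 140.2, 385.9 and 438 in mutant samples, against 21.3, 89, 54.1 and 46 in wild type samples (log2 change 2.48, SE 0.489, limma adjusted p = 0.0210). Its second probe set read 148, 121.4, 160.1 and 140.7 in mutant samples, against 35.5, 45, 25.6 and 42.7 in wild type samples (log2 change 1.96, SE 0.284, limma adjusted p = 0.00976). All 4 mutant arrays lay above all wild type arrays on both, and on the second the mutant arrays were close together. Without mutant replicates 3 and 4 the second still passed (log2 change 1.88, limma adjusted p = 0.0196) and the first did not (log2 change 1.83, limma adjusted p = 0.0590). When arrays were left out singly, the first lost its call in 5 of 8 fits, without mutant replicates 3 or 4 and without wild type replicates 1, 3 or 4 (limma adjusted p from 0.0558 to 0.0673). Plec, which encodes the linker protein plectin, and Pkp2, which encodes the desmosomal plaque protein plakophilin 2, had the next largest changes and did not pass (log2 change 1.63 and 1.49, limma adjusted p = 0.0936 and 0.0571; with replicates 1 and 2 as the only mutants, 0.57 and 0.70, limma adjusted p = 0.329 and 0.153). Plec read 763.8 and 795.2 on mutant replicates 3 and 4, 165.8 and 193.1 on mutant replicates 1 and 2, and 79.2 to 177.6 in wild type samples. A second tested Plec probe set rose less, with 195.1 and 192.3, 150.8 and 148.4, and 71.4 to 142.3 on the same arrays (log2 change 0.70, limma adjusted p = 0.144). A second tested Pkp2 probe set did not pass either (log2 change 1.10, limma adjusted p = 0.0581).

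Of 13 tested genes among 28 other keratins, 2 fell, 0 rose and 11 did not pass (median log2 change -0.28). The sign of this median turned with the mutant pair used, at 0.15 without mutant replicates 3 and 4 and -0.57 without replicates 1 and 2. Krt72 and Krt73, type II keratins of the inner root sheath of the hair follicle, were the 2. Krt73 read 41.4, 36.6, 34 and 21.5 in mutant samples, against 118, 78.8, 121.1 and 107 in wild type samples (log2 change -1.69, SE 0.315, limma adjusted p = 0.0185). Krt72 read 32.6, 21.9, 43.4 and 21.3 in mutant samples, against 62.9, 92.7, 85.5 and 98.8 in wild type samples (log2 change -1.56, limma adjusted p = 0.0285). Neither overlapped between the groups, and both also passed when mutant replicates 3 and 4 were left out (limma adjusted p = 0.0263 for Krt73 and 0.0264 for Krt72). On mutant replicate 2 both lay under the bound, so the size of these falls is limited by background signal. Krt73 lost its call in 4 of 8 single omissions, those of mutant replicate 3 and wild type replicates 1, 3 and 4 (limma adjusted p from 0.0506 to 0.0728), and Krt72 in 6, those of mutant replicates 3 and 4 and each wild type replicate (limma adjusted p from 0.0505 to 0.0939). Krt71, which stands with them as an inner root sheath keratin, was lower in all mutant samples and did not pass (log2 change -0.93, limma adjusted p = 0.164; with replicates 1 and 2 as the only mutants, -1.19, limma adjusted p = 0.140). Its mean log2 signal in mutant samples was 5.20, so it too was tested only through wild type samples. Krt84 read 341.5, 366.9, 102.2 and 119.6 in mutant samples, against 282.6 to 332.9 in wild type samples, a change that missed the threshold (limma adjusted p = 0.347), also with mutant replicates 1 and 2 as the only mutants (log2 change 0.17, limma adjusted p = 0.691). With mutant replicates 3 and 4 as the only mutants Krt84 passed as lower (log2 change -1.51, limma adjusted p = 0.00043).

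Of 8 tested genes for other type III, type IV and lens filaments, 1 rose, 0 fell and 7 did not pass (median log2 change -0.10). This median turned as well, at 0.30 without mutant replicates 3 and 4 and -0.31 without replicates 1 and 2. Synm, which encodes synemin, a filament protein that copolymerises with vimentin or desmin, read 210.8, 263.1, 252.2 and 203.1 in mutant samples, against 56.7, 74.4, 123 and 105.5 in wild type samples. The mutant arrays lay close together and above all wild type arrays (log2 change 1.42, SE 0.292, limma adjusted p = 0.0231), also without mutant replicates 3 and 4 (log2 change 1.45, limma adjusted p = 0.0383). A second Synm probe set missed the threshold (log2 change 0.70, limma adjusted p = 0.0970). The Synm call was lost in 5 of 8 single omissions, those of mutant replicates 3 and 4 and wild type replicates 1, 2 and 4 (limma adjusted p from 0.0505 to 0.0797). Bfsp1, which encodes the lens filament protein filensin, read 1955.7, 2215.9, 214.3 and 231.2 in mutant samples, against 744.5, 481.1, 2.7 and 7.1 in wild type samples, and did not pass (log2 change 3.73, SE 1.72, limma adjusted p = 0.204; 5.35 without mutant replicates 3 and 4, limma adjusted p = 0.133). Its wild type arrays thus fell into a bright and a dark pair, and the mutant pair of replicates 3 and 4 lay between them. The dark pair lay under the bound, so the size of the Bfsp1 change rests in part on background signal. The change of Nefh, a neurofilament gene, missed it too (log2 change -0.48, limma adjusted p = 0.366; -0.84 without mutant replicates 3 and 4, limma adjusted p = 0.117).

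Of 20 tested genes for partners and processing enzymes of the nuclear lamina, 2 fell, 0 rose and 18 did not pass (median log2 change -0.31, and -0.34 without mutant replicates 3 and 4). Tmpo, which encodes the lamina-associated polypeptides 2, read 277.7, 195.9, 214.7 and 216.7 in mutant samples, against 597.4, 457.5, 459.2 and 452.4 in wild type samples (log2 change -1.12, SE 0.222, limma adjusted p = 0.0212). The highest mutant array lay well under the lowest wild type array, and the fall also passed without mutant replicates 3 and 4 (log2 change -1.07, limma adjusted p = 0.0406). The other 3 tested Tmpo probe sets did not pass (log2 change -0.79, 0.21 and -0.22, limma adjusted p = 0.149, 0.728 and 0.694). Ankle2, a LEM domain protein with a part in rebuilding the nuclear envelope after mitosis, read 229.3, 153.8, 161.5 and 137.8 in mutant samples, against 478.6, 356.6, 308.6 and 312.6 in wild type samples (log2 change -1.10, SE 0.256, limma adjusted p = 0.0343). It did not pass without mutant replicates 3 and 4 (log2 change -0.93, limma adjusted p = 0.0824), and its other 2 tested probe sets did not pass (log2 change 0.13 and -0.35, limma adjusted p = 0.747 and 0.428). Both genes lost the call in the same 6 single omissions, those of mutant replicates 3 and 4 and each wild type replicate (limma adjusted p from 0.0514 to 0.0843 for Tmpo and 0.0758 to 0.114 for Ankle2). Rce1, a protease that trims prenylated proteins, and Narf, which binds prenylated prelamin A, had the largest changes that did not pass (log2 change 1.53 and 1.23, limma adjusted p = 0.0814 and 0.145). With replicates 1 and 2 as the only mutants they were 0.84 and 1.31 (limma adjusted p = 0.356 and 0.212). Rce1 had a mean log2 signal of 5.06 on the arrays other than mutant replicates 3 and 4. It was thus tested only through that pair, and its change over all mutants carries no weight.

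**Figure D4:**
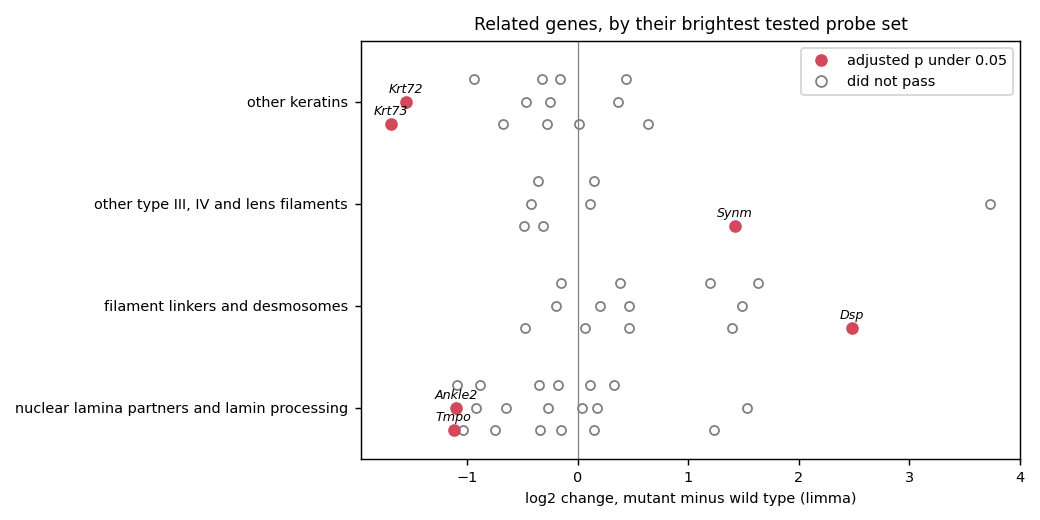
Log2 change, mutant minus wild type, of 54 tested genes in 4 related lists, each by its brightest tested probe set; filled points passed at an adjusted p under 0.05 and open points did not, and height within a row only separates the points. Dsp and Synm passed to the right of 0 and Krt72, Krt73, Tmpo and Ankle2 to the left, and the open point at 3.73 is Bfsp1.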

How the data were processed

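Intensities were taken as deposited: each is a MAS5 signal of a probe set, linear in scale, as the submitters' processing notes name it, without a software version in the sources used here. Each array had a 2% trimmed mean of 150, and no rescaling was applied. A floor of 1 was set before log2. Of 45037 probe sets besides 64 controls, 22519 had a mean log2 signal of at least 5.25, the upper 50%, and entered the test of mutant against wild type in limma 3.58.1 under R 4.3.3, using lmFit and eBayes with a trend on intensity. The two-sided p-values were adjusted by Benjamini-Hochberg, with a threshold of 0.05. The fit was tested on simulated data. Intervals are 95% intervals of the fit.

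Gene symbols are those of the platform annotation (34945 probe sets with 1 symbol, 932 with several, 9160 with none), and RefSeq gene identifiers changed 0 of them. In a related or marker list a gene was represented by its probe set of highest mean log2 signal, among tested ones for related genes. No 2 arrays held identical values. The members, lists, naming rule and alternatives were chosen with earlier results of these data known. Named are all members, Smarca4, the related genes that passed, the 2 largest changes per list that did not, and the 3 nearest profiles. Some marker genes and Dsg2 are named beside these. The background bound follows an earlier analysis that set it with the data in view. Promoter windows of 7 of the 9 genes were used.

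Alternatives were other scalings (quantile, median, 75th percentile), a filter at the upper 30% or none, a fit without the trend, a pseudocount of 12.5, the replicate number as a block, array weights, and omission of single arrays or of a mutant pair.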

Additional observations from a re-analysis of the deposited data

How the results depend on the processing

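Of the 12 tested member probe sets, 6 kept the sign of their change under each alternative that tested them: Krt18, the brightest of Krt8, the second of Lmna and the dimmer of Lmnb1 under 19, and Vim and the second of Krt8 under 18, as both are too dim for the upper 30%. The last 2 entered the test only through mutant replicates 3 and 4. Krt18 kept its call under every scaling, filter, pseudocount, trend and weight setting (limma adjusted p at most 0.0361). Array weights gave 7 member calls, 29 related genes and 11487 calls over all probe sets, and omission of mutant replicates 1 and 2 gave 7, 22 and 9359. Omission of mutant replicates 3 and 4 gave 0 member calls (2 at an unadjusted p under 0.05). Single omissions gave 0 to 4 member calls, 0 to 11 related genes and 73 to 2925 calls over all probe sets; where they gave 0 member calls, 3 to 5 had an unadjusted p under 0.05. The replicate block gave 0 member calls, 0 related genes and 15 in all (7 members and 17 related genes at an unadjusted p under 0.05, limma), and Krt18 then had a limma adjusted p of 0.0883. Deviations of arrays with the same number correlated at -0.18 to 0.02. Whether the numbers mark a pairing cannot be told from so few values. The cause of these shifts was not tested.

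Set against the main fit, signs turned only for changes that passed neither there nor under the alternative. Between the mutant pairs this did not hold. With replicates 3 and 4 as the only mutants, the second of Nes and Krt84 passed as lower (log2 change -1.47 and -1.51, limma adjusted p = 0.00918 and 0.00043). The third of Krt8 passed as higher there, but it was tested only through that pair. Without mutant replicates 3 and 4 the log2 change was -0.055 for the third Krt8 probe set, 0.24 for the second of Nes, 0.23 for the first and -0.14 for the third of Lmna, and 0.17 for Krt84. Without mutant replicates 1 and 2 it was -0.17 for the first of Nes and -0.073 for the brighter of Lmnb1, which array weights put at -0.033. Over single omissions the first of Lmna ran from -0.33 (without wild type replicate 2) to 0.051 (without mutant replicate 4), and was above 0 without wild type replicate 3 too. The third of Lmna was -0.032 after quantile normalization and after median centring. Changes of probe sets near the background bound, those of Krt7, Krt19, Lmnb2 and wild type Vim, are limited by signal over background. So are those of Krt71, Krt72 and Krt73, where mutant signal exceeded the bound on 3 of 4 arrays. Wild type signal exceeded it on 3 of 4 arrays for Dsp and Narf and on 2 of 4 for Bfsp1, Rce1 and the third of Krt8, which limits these changes too.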
